A study of Drosophila melanogaster with 5 samples.

Results

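RNA of 38 DNA repair and checkpoint genes of D. melanogaster was compared between LB-flies, which developed in the low-background underground laboratory, and NB-flies, which developed in the ground laboratory at natural background. The genes were taken from a list of repair enzymes that was grouped by pathway, with 21 genes of double-strand break repair, checkpoint signalling, crosslink repair and lesion bypass, 11 of excision repair, 3 of mismatch repair and 3 of direct reversal (photorepair). Of these, 34 were found by their symbol and 4 by a synonym (mus308, mus205, mus210 and Parp). They have 60 of the 34111 RefSeq transcripts listed in the counts, and 37 of these, from 33 genes, were among the 17337 transcripts that were tested, those whose counts over the 5 libraries reached 10 in total.

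There were 3 libraries of LB-flies and 2 of NB-flies. All were males of the wild-type strain Oregon-R (Oregon in the labels), adults of day 3 by the labels, with no mutation, transgene or irradiation in either group. Each library came from the pooled males of 1 vial, and all vials belonged to 1 experiment, with the flies cultured in the dark. The groups therefore differ in the place and in everything that goes with it, and radiation cannot be told apart from the other conditions of the 2 laboratories. Libraries held between 23027411 and 26036113 counted reads, and 3 counts, the detection floor used here, lie between 0.115 and 0.136 CPM on the normalized scale used for all CPM here. The libraries are of whole animals, so that fewer cells of a type and less RNA per cell cannot be told apart.

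Double-strand breaks are sensed by the Mre11 complex, signalled by the kinases ATM and ATR, and then either copied from an intact template by homologous recombination or rejoined by the Ku proteins and a ligase, with DNA polymerase theta as a further way to join ends. Excision pathways cut out a damaged base or a stretch of the strand and fill the gap, mismatch repair removes copying errors, and photolyases undo ultraviolet damage with the energy of light. Much of this machinery is best known in flies from mutants sensitive to mutagens (the mus genes) or defective in meiosis (the mei and spn genes), and dividing cells and the germline rely on it.

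How much of each pathway could be read differed between genes with 1 and with several RefSeq transcripts. A read that fits several transcripts enters no count. A gene with a single RefSeq transcript thus loses no reads to other isoforms, and a gene with several keeps only those of exons that belong to 1 isoform. Reads may also be lost where genes overlap, since the strand setting is not known. In the libraries, between 53.9% and 56.5% of all records were such ambiguous reads. All 24 repair genes with 1 transcript were tested, and their totals over the 5 libraries ran from 241 (spn-D) to 15357 (mus308), with a median of 4366.5. Of the 14 genes with several transcripts 9 were tested, and the totals of the 14 had a median of 64 and a highest value of 1337 (agt). Among all genes of the counts, 17.4% of the 7319 symbols with several transcripts and 18.3% of the 9655 with 1 transcript had no tested transcript. The parts of annotation and of expression in the totals of the repair genes were not tested.

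The genes without a tested transcript belong to central steps of repair. Among the 5 were hay and mus201, the fly counterparts of the XPB helicase and the XPG nuclease, with 4 and 2 counts in all libraries together, and mei-9 and phr6-4, the XPF nuclease and a photolyase, with 0. A count of 0 in each library allows up to 0.136 CPM of reads that belong to 1 isoform alone, and it sets no limit on the expression of the gene. No statement on these 5 genes is possible from these counts, and the values of grp, rad50, nbs, Irbp, mus210, Rrp1, phr and agt describe isoform-specific exons only.

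**Figure D1:**
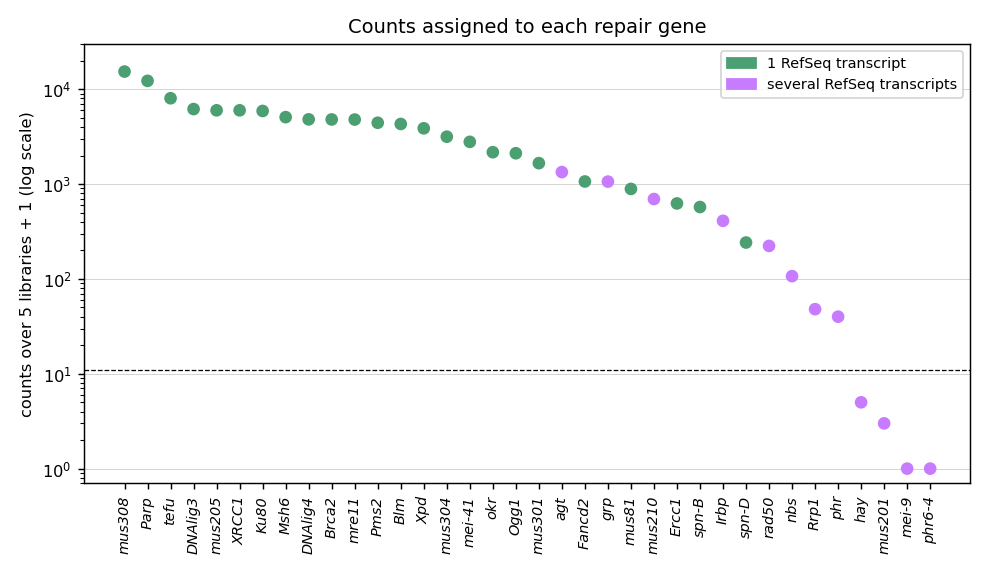
Counts assigned to each of 36 repair genes, summed over its transcripts and the 5 libraries, plotted as counts + 1 on a log axis and ordered from high to low. Green points are the 24 genes with 1 RefSeq transcript, all of them above the dashed line at 10 counts, and violet points are 12 genes with several, of which hay, mus201, mei-9 and phr6-4 lie below it.

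Among the genes with 1 transcript in both RefSeq and Ensembl, the level per length, given as mean CPM per kb of annotated exon, was highest for Parp, the poly(ADP-ribose) polymerase that marks broken strands, with 29.7 in LB-flies and 35.4 in NB-flies. It was followed in LB-flies by Ku80 with 20.9 in LB-flies and 20.9 in NB-flies, XRCC1 with 20.3 and 21.97, mus308 with 19.3 and 19.9 and DNAlig3 with 19.1 and 19.8, in each case LB-flies before NB-flies. These genes carry end joining and the repair of single-strand breaks. In NB-flies mre11, which belongs to end sensing, ranked next after Parp with 22.6, against 16.9 in LB-flies. In LB-flies the lowest levels per length were those of Fancd2, spn-D, mus81 and mei-41. Fancd2 had 1.36 CPM per kb in LB-flies and 2.62 in NB-flies, spn-D 1.78 and 2.08, mus81 2.44 and 4.61, and mei-41 2.74 and 3.02. In NB-flies spn-D was the lowest, and spn-B with 3.54 and mus301 with 4.58 also lay below mus81.

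No repair transcript passed the threshold, an FDR of 0.05 together with at least a 1.5-fold difference. The quasi-likelihood test in edgeR found 0 of the 37 past it, and 0 of all 17337 (0.0%). DESeq2 also called 0 of the 37, against 76 of all transcripts (0.438%). The transcripts of nbs, Rrp1, spel1 and phr and the minor ones of grp had no adjusted p in DESeq2 and could not be called. With an unadjusted p under 0.05 there was 1 repair transcript in edgeR, Fancd2, lower in LB-flies, where 3.66% of all transcripts were lower at that limit, and 0 were higher, where 3.91% of all were (7.57% in either direction). In DESeq2 there were 2 at an unadjusted p under 0.05, Fancd2 and mus81, both lower, against 2.87% of all transcripts on that side and 6.36% in either direction. The smallest adjusted p of a repair transcript in edgeR was 0.625.

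The direction was less even than the p-values. Of the 37 transcripts 31 had a log2 fold change below 0, that is a lower level in LB-flies, against 52.6% of all tested transcripts, and the median log2 fold change was -0.20 against -0.02 over all. By pathway, 19 of 22 transcripts of the double-strand break group were lower (median -0.22), 8 of 9 of excision repair (median -0.19) and 3 of 3 of mismatch repair (median -0.24), and in direct reversal 1 of 3 (median 0.14). The last median rests on 2 transcripts of phr with 18 and 21 counts and turned to -0.06 with the transcripts of a gene summed. Most of these differences were small, with 23 of the 33 leading transcripts (the transcript of a gene with the most counts) within 0.3 of 0 on the log2 scale and a median SE of 0.21. With all LB values below both NB values there were 4 repair transcripts (Irbp, Fancd2, Xpd and Parp), against 13.1% of all transcripts, and with all LB values above there were 0, against 14.8%.

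The values in each library were uneven between the NB-flies. NB replicate 2 was the highest of the 5 libraries for 26 of the 37 repair transcripts, against 21.9% of all tested transcripts, and it was higher than NB replicate 1 for 30 of the 37, against 48.8% of all. The median ratio of NB replicate 2 to NB replicate 1 was 1.27 for repair transcripts and 0.988 for all transcripts. Without NB replicate 2, 20 of 36 repair transcripts were lower in LB-flies, against 48.7% of all, and the median log2 fold change was -0.01 against 0.01 over all. In that fit 1 repair transcript had an unadjusted p under 0.05, spn-D, higher in LB-flies, against 0.838% of all transcripts on that side and 2.84% in either direction, and edgeR called 0 of all transcripts (0.0%). Without NB replicate 1 instead, 6 of 36 had an unadjusted p under 0.05 and were lower in LB-flies, mus81, Fancd2, Msh6, spn-D, Blm and mus301, against 2.64% of all transcripts on that side, and edgeR gave each an adjusted p of 0.785. The single remaining NB library is assumed in both fits to vary like the LB libraries.

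**Figure D2:**
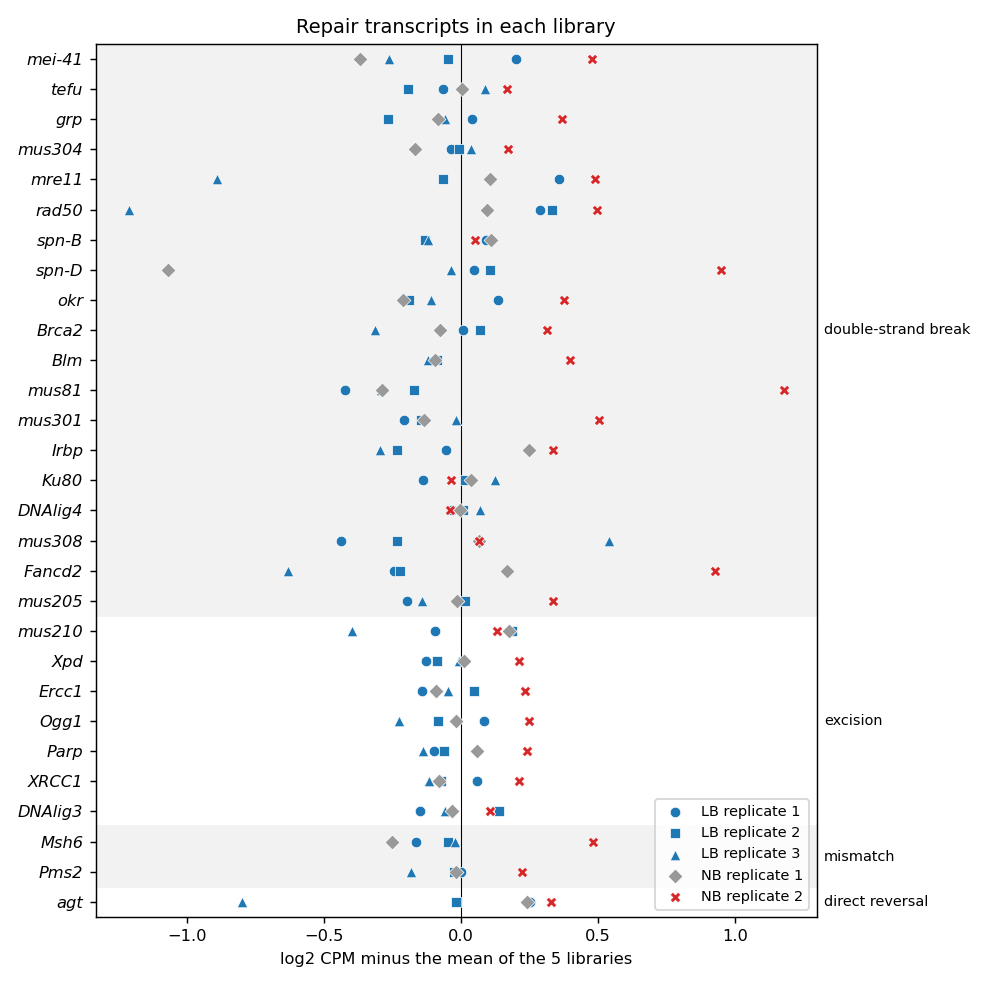
Level of the leading transcript of 29 repair genes with at least 200 counts in each library, as log2 CPM minus the mean of the 5 libraries, with the genes in rows by pathway. Blue symbols are the 3 LB libraries, the grey diamond is NB replicate 1 and the red cross is NB replicate 2, which lies farthest to the right in most rows, with Ku80, DNAlig4, mus308, spn-B, mus210 and DNAlig3 as the exceptions.

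The checkpoint kinases did not differ beyond the spread between libraries. mei-41, the fly ATR, had 25.3, 21.3 and 18.3 CPM in LB-flies against 17.0 and 30.7 CPM in NB-flies. The LB values thus lay between the 2 NB values, and the log2 fold change was -0.14 (SE 0.28) with both NB libraries and 0.34 without NB replicate 2. tefu, the fly ATM and the best counted of these genes, had 62.1, 56.9 and 69.0 CPM in LB-flies and 65.1 and 73.0 CPM in NB-flies, with overlapping groups. The leading transcript of grp, the fly Chk1, had 8.48, 6.86 and 7.92 CPM in LB-flies against 7.77 and 10.6 CPM in NB-flies. Its log2 fold change was -0.25 (SE 0.21, adjusted p = 0.765 in edgeR), with the smallest p of the group. Without NB replicate 2 the log2 fold change of grp was -0.01. mus304, the ATRIP partner of mei-41, had a log2 fold change of -0.02 (SE 0.15).

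Of the Mre11 complex, which binds and trims broken ends, mre11 had 47.0, 35.0 and 19.8 CPM in LB-flies against 39.4 and 51.5 CPM in NB-flies. LB replicate 3 was far below the other LB libraries, and the groups overlapped (log2 fold change -0.42, SE 0.35). rad50 was lowest in the same library, with 2.02, 2.09 and 0.717 CPM in LB-flies and 1.77 and 2.34 CPM in NB-flies, while nbs was highest in it among the LB-flies, with 0.535, 0.863 and 1.05 CPM against 0.645 and 1.23 CPM in NB-flies. The values of rad50 and nbs rest on isoform-specific reads, between 14 and 61 counts a library.

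In homologous recombination, Brca2, which loads the recombinase onto single-stranded DNA, had 38.8, 40.4 and 31.1 CPM in LB-flies against 36.6 and 48.0 CPM in NB-flies. Its log2 fold change was -0.20 (SE 0.18) and came to 0.00 without NB replicate 2. okr, the fly Rad54, had 19.0, 15.2 and 16.0 CPM in LB-flies against 14.9 and 22.4 CPM in NB-flies, with the LB values between the NB values. spn-B, a recombination gene needed in the oocyte, was nearly level, with 4.93, 4.23 and 4.26 CPM in LB-flies against 4.995 and 4.80 CPM in NB-flies.

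spn-D, a second recombination gene of the oocyte, on chromosome 3R from 27165716 to 27167122, was named here after its values were seen. It had 1.83, 1.91 and 1.73 CPM in LB-flies against 0.846 and 3.41 CPM in NB-flies, or counts of 48, 42 and 41 against 21 and 89. The LB libraries agreed closely and lay between NB libraries that differed 4.04-fold. The log2 fold change was -0.23 (SE 0.54) with both NB libraries and 1.10 without NB replicate 2 (adjusted p = 0.986 in edgeR), so that its direction is set by which NB library is used.

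The helicases and nucleases that resolve joined DNA molecules had the plainest pattern of a single high library. mus81, on chromosome X from 941075 to 943229, encodes a subunit of a structure-specific endonuclease and had 4.81, 5.72 and 5.27 CPM in LB-flies against 5.28 and 14.6 CPM in NB-flies. The LB libraries and NB replicate 1 were alike, and NB replicate 2 stood apart, 2.76-fold above NB replicate 1. The log2 fold change was -0.92 (SE 0.41), with an adjusted p of 0.625 in edgeR and 0.597 in DESeq2, and -0.01 without NB replicate 2. Of the exon bases of mus81 14.99% are shared with CG3703 on the opposite strand. Blm, the RecQ helicase, had 32.3, 32.5 and 31.7 CPM in LB-flies against 32.3 and 45.5 CPM in NB-flies, and mus301, the HELQ helicase, had 11.5, 11.9 and 13.1 CPM in LB-flies against 12.0 and 18.8 CPM in NB-flies. Their log2 fold changes were -0.27 (SE 0.17) and -0.34 (SE 0.22), and without NB replicate 2 they were -0.01 and 0.01.

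In end joining NB replicate 2 was the highest library for 1 of 4 transcripts. Ku80 had 43.6, 48.6 and 52.3 CPM in LB-flies against 49.3 and 46.8 CPM in NB-flies, a log2 fold change of 0.00 (SE 0.13). DNAlig4, the ligase of this pathway, had 38.3, 39.4 and 41.2 CPM in LB-flies against 39.1 and 38.1 CPM in NB-flies, a log2 fold change of 0.04 (SE 0.12). These are among the most closely measured genes of the list, with groups that overlap. mus308, the fly DNA polymerase theta, had 90.2, 104 and 177 CPM in LB-flies against 128 and 128 CPM in NB-flies. Here LB replicate 3 was the high library, and the log2 fold change was -0.05 (SE 0.29). With LB replicate 1 or LB replicate 2 left out it was 0.14 or 0.05, so that its direction is not fixed.

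Irbp, the fly Ku70, on chromosome 3R from 11410047 to 11412440, was lower in each LB library, with 3.13, 2.77 and 2.66 CPM in LB-flies against 3.87 and 4.11 CPM in NB-flies. Its log2 fold change was -0.48 (SE 0.20, adjusted p = 0.625 in edgeR, unadjusted 0.0507) and -0.44 (SE 0.27) without NB replicate 2. These values come from 1 of 2 transcripts of Irbp, with between 61 and 107 counts a library, and the other transcript had no count. Ku80, its partner in the Ku heterodimer, had the log2 fold change of 0.00 given above, and the difference between the 2 genes was not tested.

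Fancd2, on chromosome 3R from 20810804 to 20816190, encodes the protein that is marked with ubiquitin at DNA crosslinks in the Fanconi anaemia pathway, and it had the smallest p of the list. It had 6.72, 6.81 and 5.14 CPM in LB-flies against 8.94 and 15.1 CPM in NB-flies, or counts of 176, 150 and 122 against 222 and 394. All LB values lay below both NB values, and the NB libraries differed 1.69-fold from each other. The log2 fold change was -0.95 (SE 0.27), with an unadjusted p of 0.0123 and an adjusted p of 0.625 in edgeR, and an adjusted p of 0.282 in DESeq2. Without NB replicate 2 it was -0.53 (SE 0.27, unadjusted p = 0.111 in edgeR), on the same side. Its exons are shared with no other gene. mus205, the catalytic subunit of DNA polymerase zeta, which copies past lesions, had 42.2, 48.8 and 43.8 CPM in LB-flies against 47.9 and 61.0 CPM in NB-flies, a log2 fold change of -0.28 (SE 0.15), or -0.09 without NB replicate 2.

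**Figure D3:**
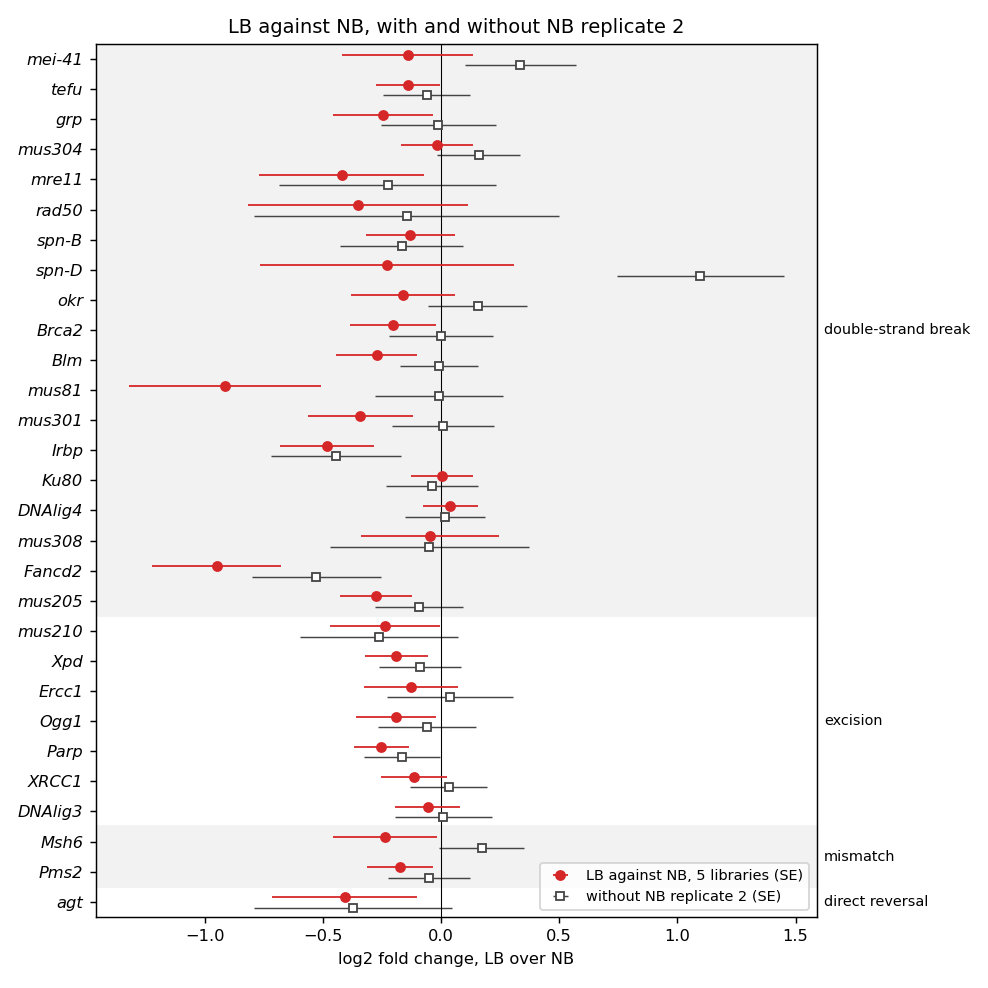
Log2 fold change of LB-flies over NB-flies for the leading transcript of 29 repair genes with at least 200 counts, with the genes in rows by pathway and bars of 1 SE. Red circles are the fit of all 5 libraries and open squares the fit without NB replicate 2, in which mus81, Blm, mus301 and Brca2 lie at 0, Fancd2 and Irbp stay at -0.53 and -0.44 and spn-D moves to 1.10.

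In nucleotide excision repair, which removes bulky and ultraviolet lesions, Xpd, a helicase of the transcription factor TFIIH, had 28.7, 29.5 and 31.2 CPM in LB-flies against 31.6 and 36.3 CPM in NB-flies. The LB values were below both NB values by a small margin, with a log2 fold change of -0.19 (SE 0.13, adjusted p = 0.715 in edgeR). Its log2 fold change was -0.09 without NB replicate 2. Ercc1, the partner of the mei-9 nuclease, had 4.58, 5.22 and 4.89 CPM in LB-flies against 4.75 and 5.95 CPM in NB-flies, with overlapping groups. mus210, the fly XPC damage sensor, had 2 tested transcripts, one with a log2 fold change of -0.24 (SE 0.23) and one with 0.41 (SE 0.69). The one with 0.41 ran from 0.548 to 2.75 CPM within the LB-flies.

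In base excision and single-strand break repair, Parp, from 3461351 to 3587054 on chromosome 3R, had 92.5, 94.8 and 90.03 CPM in LB-flies against 103 and 117 CPM in NB-flies. The LB values were close to each other and below both NB values, with a log2 fold change of -0.25 (SE 0.12, adjusted p = 0.625 in edgeR) and of -0.16 (SE 0.16) without NB replicate 2. XRCC1, the scaffold of this pathway, had 50.4, 46.0 and 44.7 CPM in LB-flies against 45.8 and 56.1 CPM in NB-flies. DNAlig3, which seals the nick, had 45.3, 55.3 and 48.3 CPM in LB-flies against 49.1 and 54.1 CPM in NB-flies, a log2 fold change of -0.06 (SE 0.14). Ogg1, the glycosylase that removes oxidised guanine, had 18.0, 16.0 and 14.5 CPM in LB-flies against 16.8 and 20.2 CPM in NB-flies. The groups overlapped for these 3 genes. For Rrp1, the endonuclease of abasic sites, 2, 12 and 6 counts in LB-flies against 10 and 17 in NB-flies gave a log2 fold change of -0.88 (SE 0.73), a difference not detectable at this depth.

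In mismatch repair, Msh6, which takes part in recognising a mispaired base, had 36.2, 39.3 and 39.96 CPM in LB-flies against 34.04 and 56.6 CPM in NB-flies. The LB values lay between the NB values, and the log2 fold change was -0.24 (SE 0.22), or 0.17 without NB replicate 2. Pms2, which acts after recognition, had 35.9, 35.2 and 31.6 CPM in LB-flies against 35.3 and 41.8 CPM in NB-flies (log2 fold change -0.17, SE 0.14).

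In direct reversal, agt, the methyltransferase that takes alkyl groups off guanine, had 12.4, 10.3 and 5.99 CPM in LB-flies against 12.3 and 13.04 CPM in NB-flies. As for mre11 and rad50, LB replicate 3 was the lowest library, and the log2 fold change was -0.41 (SE 0.31, adjusted p = 0.735 in edgeR). Of the exon bases of agt 29.3% are shared with twr on the opposite strand. The photolyase gene phr was near the detection floor, with between 2 and 6 counts of each of its 2 transcripts in every library, so that a difference in it was not detectable at this depth. With no count for phr6-4, neither photolyase could be compared.

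Genes of the same pathways outside the list were read in the same way. Of 59 such genes, 49 had a tested transcript. Of their 51 transcripts 42 were lower in LB-flies, against 52.6% of all tested transcripts, with a median log2 fold change of -0.19. NB replicate 2 was the highest library for 34 of the 51, against 21.9% of all. Without it 20 of 50 were lower, against 48.7% of all, and the median was 0.04. edgeR and DESeq2 called 0 of them, against 0.0% and 0.438% of all transcripts. In edgeR 2 had an unadjusted p under 0.05, both lower, against 3.66% of all transcripts on that side and 7.57% in either direction. One was RPA1, the large subunit of the single-strand binding protein, with 130, 129 and 133 CPM in LB-flies against 153 and 167 CPM in NB-flies. The other was rec, a meiotic helicase, on 3, 2 and 3 counts against 8 and 16. The log2 fold change of RPA1 was -0.29 (SE 0.11), and -0.24 without NB replicate 2. cry, the blue-light receptor related to the photolyases, was higher in NB replicate 1 than in NB replicate 2, with 244, 255 and 307 CPM in LB-flies against 412 and 326 CPM in NB-flies (log2 fold change -0.46, SE 0.17, unadjusted p = 0.0326 and adjusted p = 0.625 in edgeR).

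The summed levels of S-phase and early germline markers were also highest in NB replicate 2, while that of testis genes was lowest there. The summed level of 21 S-phase and cell cycle genes was 251, 273 and 184 CPM in LB-flies against 222 and 501 CPM in NB-flies. NB replicate 2 was the highest library for 20 of their 25 transcripts, against 21.9% of all. Of 10 early germline genes 6 were tested, with sums of 31.2, 25.6 and 29.2 CPM in LB-flies against 25.0 and 58.3 CPM in NB-flies. NB replicate 2 was the highest library for 4 of these 6, against 21.9% of all transcripts. The untested vas, bgcn and zpg had 3, 2 and 7 counts in NB replicate 2 and 0 in the other libraries. piwi, also untested, had 1 count in LB replicate 1 and 1 in NB replicate 2. Such counts are near or below the detection floor. Of 24 genes of the egg and of females 13 were tested, and their sums were 154, 49.1 and 53.3 CPM in LB-flies against 43.7 and 200 CPM in NB-flies, so that the sum was high in LB replicate 1 as well as in NB replicate 2. The maternal gene swa had 18.1, 1.27 and 1.22 CPM in LB-flies against 1.61 and 45.0 CPM in NB-flies. The list did not move as one, since NB replicate 2 was the highest library for 5 of its 13 transcripts, and the chorion genes Cp15, Cp18 and Cp19 had all LB values above both NB values, Cp18 with 3.06, 2.14 and 2.32 CPM in LB-flies against 1.21 and 1.61 CPM in NB-flies (adjusted p = 0.625 in edgeR). Of the female-specific yolk proteins Yp1 had no count and Yp2 had 12, 1 and 0 counts in LB-flies against 1 and 1 in NB-flies, and 6 of the list, each with several transcripts (Yp1, Vm26Aa, Vm26Ab, Vml, osk and bcd), were at 0 in every library. Of 17 testis genes 16 were tested, with sums of 4710, 4987 and 4819 CPM in LB-flies against 4184 and 3768 CPM in NB-flies. The part of these cell types in the repair values was not tested.

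With LB replicate 1 and NB replicate 2 both left out, 19 of 35 repair transcripts were lower in LB-flies, against 50.6% of all transcripts, with a median log2 fold change of -0.01. None of the 35 had an unadjusted p under 0.05 in edgeR, against 5.86% of all. Fancd2 was then at -0.58, Irbp at -0.51 and mus81 at 0.06.

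**Figure D4:**
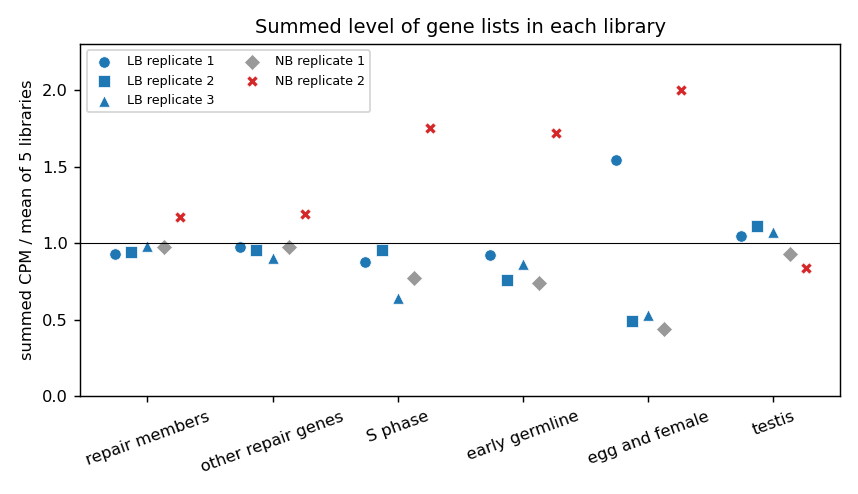
Summed CPM of each gene list in each library, divided by the mean of the 5 libraries, with LB libraries in blue, NB replicate 1 in grey and NB replicate 2 in red. NB replicate 2 is the highest library for the repair members, the other repair genes, the S-phase, early germline and egg lists and the lowest for the testis list, and LB replicate 1 is also high for the egg list.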

How the data were processed

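Poly(A) RNA of 5 vials of males was sequenced with a stranded kit. Before deposit, adapters were removed with TrimGalore and Cutadapt, HISAT2 placed the reads on repeat-masked dm6, and HTSeq assigned them to transcripts. The authors deposited whole-number counts per RefSeq transcript, without normalization. The counting mode and strand setting are not given in the sources used here, so that values remain uncertain where genes overlap: 20 of the 38 genes share exon bases with a gene on the opposite strand and 3 with one on the same strand (Ensembl annotation of the same assembly). The summary lines that close each file were left out. Of 34111 transcripts, 33899 were matched to a symbol.

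Transcripts with under 10 counts in total were dropped. After TMM normalization, a quasi-likelihood model was fitted in edgeR (4.0.16, R 4.3.3) to all 5 libraries, with Benjamini-Hochberg adjustment over 17337 transcripts. The SE is the absolute log2 fold change divided by the square root of the F statistic. Alternatives were DESeq2 1.42.0, its size factors, other filters, summed transcripts, replicate blocks and each library left out. With 5 libraries an exact permutation test cannot reach 0.05 and none was used. The scripts were tested on simulated data. Parent flies were placed in each laboratory for egg-laying, so that the groups had different parents. Within a group, the sources do not say whether the vials differ in parents or batch. The p-values measure the spread between vials of 1 experiment.

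Full values are given for the smallest p of each subgroup, for genes whose groups do not overlap and for the best counted gene of each pathway. The other genes described, spn-D and mei-41 among them, were chosen after their values were seen. The genes, marker lists and rules were chosen with earlier results of these data known. Some genes of the list are not reported here singly and enter the counts and medians only.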

Additional observations from a re-analysis of the deposited data

How the results depend on the processing

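The count of repair transcripts past an FDR of 0.05 was 0 under all 15 alternatives. Few of all transcripts passed it either. In edgeR 0 of all 17337 did with all libraries, 5 with the repeat number as a block and 1 of 16992 without LB replicate 3. In DESeq2 76 of 17337 did. The alternative restricted to genes with 1 RefSeq transcript took its values from the fit of all libraries, so that its 0 was fixed by that fit. The number with an unadjusted p under 0.05 and lower in LB-flies, 1 in edgeR with all libraries, was 2 with DESeq2, 2 with at least 10 counts required in every library, 2 with the transcripts of a gene summed, between 0 (without NB replicate 2) and 6 (without NB replicate 1, where 2.64% of all transcripts were lower at that limit) with single libraries left out, and 0 with LB replicate 1 and NB replicate 2 both left out, an alternative chosen after seeing the data. On the higher side it was between 0 and 1. The counts over all features also changed with the setting. In either direction, 1182 of 13071 transcripts had an unadjusted p under 0.05 in edgeR with at least 10 counts in every library, beside 2 of 31 repair transcripts. With transcripts summed it was 1113 of 13963 genes, beside 2 of 33 repair genes. With single LB libraries left out it was between 644 of 17039 and 2007 of 16993 transcripts. The number of repair transcripts with a log2 fold change below 0, 31 of 37, was between 20 and 31 with single libraries left out. It was 19 with both left out. The median log2 fold change was between -0.35 (without NB replicate 1) and -0.0106 (without NB replicate 2), and -0.0146 with both left out.

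Of the 33 leading transcripts, 11 turned from lower to higher in LB-flies without NB replicate 2 alone. Directions turned under some alternative for 6 of the 16 genes that were recomputed under each of them, which leave out mus301. With single libraries left out, log2 fold changes ran between -0.37 and 6.22e-06 for Brca2, -0.41 and 0.14 for mus308, -0.54 and 0.17 for Msh6, -0.49 and 0.34 for mei-41 and -0.89 and 1.10 for spn-D. With both libraries left out they were 0.0581 for mus81, 0.14 for mus308, 0.22 for Msh6, 0.22 for mei-41 and 1.10 for spn-D. Fancd2 stayed between -1.27 and -0.53 and Irbp between -0.55 and -0.44 with single libraries left out.

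Whether the replicate numbers pair the vials is not known. The correlations of deviations from the group means were -0.16 and 0.02 for equal repeat numbers over 7022 transcripts. They cannot decide this, since with 2 NB libraries the deviations of these mirror each other and the values are not independent. With the repeat number as a replicate block, 28 repair transcripts were below 0, the median was -0.11, mei-41 was at 0.0196 and spn-D at 0.0564, and 5 of all transcripts were called. With the library name as the block, 31 were below 0, the median was -0.19, spn-D was at 0.00421 and 0 of all were called. A crossed pairing by library name, chosen after seeing the data because these correlations were -0.16 and -0.18, gave 0 called and 873 of all transcripts with an unadjusted p under 0.05. The causes of these shifts were not tested.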
